A study of Mus musculus with 16 samples.

Results

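Oxidative phosphorylation was followed here through the genes of its 5 enzyme complexes, encoded in part by the mitochondrial and in part by the nuclear genome. Gene symbols that begin with Nduf (followed by a, b, c, s or v), Uqcr, Cox4 to Cox8 or Atp5, the symbols Sdha to Sdhd, and the mitochondrial mRNAs (mt-Nd, mt-Co, mt-Cytb, mt-Atp) matched 117 rows, of which 7 pseudogenes were left out. Of the remaining 110 genes, 91 had a mean of at least 5 normalised counts in CD4 T cells and 91 in Treg, among 47643 genes in each table, and 90 passed in both. The CD4 set held 8 mitochondrially encoded and 83 nuclear genes, the Treg set 7 and 84. The 19 genes below the minimum in each table are accounted for where their complex is described.

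The libraries came from spleens of TRaGS mice, in which DNA binding of thyroid hormone receptor alpha is abrogated, and of wild-type littermates, TRaWT. Each of 4 mice per genotype gave 2 libraries after magnetic enrichment and flow sorting, 16 in all: CD4, the CD25- CD4+ fraction that the labels name naive, and Treg, the CD25+ CD4+ regulatory fraction. The labels name no agent given to the mice, and their age and sex are not stated in the sources used here. RNA was read from the 3' end of polyadenylated transcripts, and the question the series was designed for is how the genotypes differ within each subset. Thra itself does not check the genotype label, since the change lies in the protein's DNA binding: its log2 change between genotypes was -0.07 ± 0.54 (SE) in CD4 and -0.05 ± 0.28 in Treg.

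In oxidative phosphorylation, complex I (NADH dehydrogenase) and complex II (succinate dehydrogenase) pass electrons to ubiquinone, complex III to cytochrome c and complex IV to oxygen, while complex V, the ATP synthase, uses the proton gradient that complexes I, III and IV build. The mitochondrial genome encodes core subunits of complexes I, III, IV and V, is transcribed as long polycistronic RNAs, and most of its mRNAs receive short poly(A) tails. All other subunits, all of complex II and the assembly factors are nuclear genes whose promoters are known targets of NRF1, of the ETS factor GABP and of YY1. Resting T cells depend on this pathway for ATP, and regulatory T cells are known to rely on it more than activated conventional T cells. Thyroid hormone is a classical regulator of mitochondrial gene expression in other tissues.

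Depth was 2679119 to 5095278 reads per library in CD4 and 2912038 to 4154027 in Treg. The row Gm42418, which overlaps ribosomal RNA, took 20.8% to 41.1% of the reads of a library. The 6 Treg markers, among them Foxp3 and Il2ra, summed to 0.0221% to 0.0354% of reads in TRaWT CD4 and 0.0296% to 0.0440% in TRaGS CD4. In Treg the sums were 0.208% to 0.268% in TRaWT and 0.273% to 0.307% in TRaGS, where the genotypes did not overlap. The markers differed in direction there. Mean normalised counts (TRaWT, TRaGS) were higher in TRaGS Treg for Ikzf2 (3751, 5466), Tnfrsf18 (518, 765) and Ctla4 (243, 266). They were near level for Foxp3 (1165, 1156) and lower for Il2ra (1500, 1141) and Ikzf4 (716, 648). The 4 markers of naive T cells summed to 0.180% to 0.216% and 0.194% to 0.254% in CD4 (TRaWT, TRaGS) and to 0.0961% to 0.129% and 0.0729% to 0.107% in Treg. All 6 T cell markers were measured in each subset. Markers of platelets were at or near 0 in all 4 groups. Red cell markers (5 genes) reached at most 0.000896% in TRaWT CD4, 0.0112% in TRaGS CD4, 0.00202% in TRaWT Treg and 0.00368% in TRaGS Treg. Markers of macrophages and dendritic cells summed to 0.00427% to 0.0207% in CD4 and 0.00456% to 0.0104% in Treg. B cell markers (7 genes, among them Ighm) summed to 0.0182% to 0.0302% in CD4, 0.0275% to 0.0406% in TRaWT Treg and 0.0496% to 0.0669% in TRaGS Treg. The part of these marker differences in the results below was not tested. One CD4 library, TRaGS replicate 2, stood apart: it was the deepest (5095278 reads), had the smallest Gm42418 share among CD4 libraries (21.1%) and the highest share of mitochondrial mRNA (3.71%). It also had the highest CD4 values of Hbb-bs (177 normalised counts), Hbb-bt (124), Hba-a1 (95.4), Lyz2 (76.4) and Cd79a (49.5). The part of such transcripts from other cells in its values was not tested. Results this library moved most are also given without it. In such bulk samples, fewer cells of a type and less RNA per cell cannot be told apart.

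The mitochondrial mRNAs were not all visible to the counting, and the sequences show where that coincides with nuclear copies. A block of mouse nuclear DNA on the minus strand, chr1:24611535-24616197 (GRCm38), carries annotated copies of consecutive mitochondrial genes, from mt-Nd4 back to mt-Co1. The last 60 bases of the alignment of mt-Co2 (chrM:7013-7696), a core subunit of complex IV, and of its copy Gm28661 (chr1:24614885-24615565) are shown because they do not differ. The same is shown for mt-Nd4 (chrM:10167-11544) at bases 817 to 876, where its copy Gm28439 ends. The cytochrome b mRNA mt-Cytb (chrM:14145-15288) is shown beside its closest annotated nuclear copy, Gm11410 on chromosome 4, with the 5 differing bases of each in capitals.
mt-Co2: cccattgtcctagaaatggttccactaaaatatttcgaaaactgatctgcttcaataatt
Gm28661: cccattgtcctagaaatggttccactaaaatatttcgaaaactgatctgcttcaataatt
mt-Nd4: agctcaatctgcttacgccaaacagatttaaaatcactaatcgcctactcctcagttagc
Gm28439: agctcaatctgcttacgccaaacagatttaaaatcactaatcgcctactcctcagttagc
mt-Cytb: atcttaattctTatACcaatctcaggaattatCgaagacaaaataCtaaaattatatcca
Gm11410: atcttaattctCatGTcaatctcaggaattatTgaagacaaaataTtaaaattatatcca

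Every mitochondrial mRNA was cut in silico into overlapping 50-base stretches, and each stretch was looked up among all annotated nuclear transcripts. Matches on the same and on the opposite strand were counted alike, here and for the ends of nuclear members below. For mt-Co2, mt-Atp6, mt-Co3 and mt-Nd4l, 100%, 99.5%, 99.9% and 98.8% of the stretches occurred in a nuclear gene. mt-Co2, mt-Atp6 and mt-Nd4l had 0 reads in all 16 libraries, and mt-Co3 had 1 read in CD4 and 6 in Treg. mt-Nd3, a complex I subunit with 98.0% shared, averaged 27.1 normalised counts in CD4 and 3.39 in Treg, so it entered only the CD4 tests. The annotated copies in the block had few reads as well: Gm28661, Gm10925, Gm28437, Gm28438, Gm10222 and Gm28439 had 0 to 2 each over the 8 libraries of a table, and Gm29216, the copy of the end of mt-Co1, had 6 in CD4 and 1 in Treg.

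Mitochondrial reads fell mainly on mRNAs whose last 300 bases are distinct in whole or in part. mt-Nd1, mt-Cytb and mt-Nd6 shared 0% of their stretches with annotated nuclear genes, mt-Nd5 7.61% and mt-Nd2 8.19%. Of these, mt-Nd6 was low all the same, with means of 42.8 in CD4 and 28.0 in Treg, where mt-Nd1 averaged 9551 and 6718. In the last 300 bases of mt-Nd2, which this kit reads, 31.9% of the stretches lie also in Gm13339. In mt-Nd4 the shared part is the first 876 bases (62.2% of stretches), and the 502 bases after it, which hold the 3' end that this kit reads, match none: mt-Nd4 averaged 29577 normalised counts in CD4. mt-Co1 was an exception, with 51.1% of stretches and the whole of its last 300 bases shared and yet a mean of 1752 in CD4. A 2nd exception was mt-Atp8, which had 0 reads although no annotated gene shares its stretches. Its counterpart in the block falls in the 233 unannotated bases chr1:24614652-24614884 between Gm10925 and Gm28661. The end of mt-Atp8 (chrM:7766-7969) lies inside mt-Atp6 (chrM:7927-8607). Likewise, the end of mt-Nd4l (chrM:9877-10173) lies inside mt-Nd4 (chrM:10167-11544). The part of these overlaps in the zeros of mt-Atp8 and mt-Nd4l was not tested. How reads that match more than 1 place were counted is not given in the sources used here, and its part in these zeros was not tested.

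**Figure D1:**
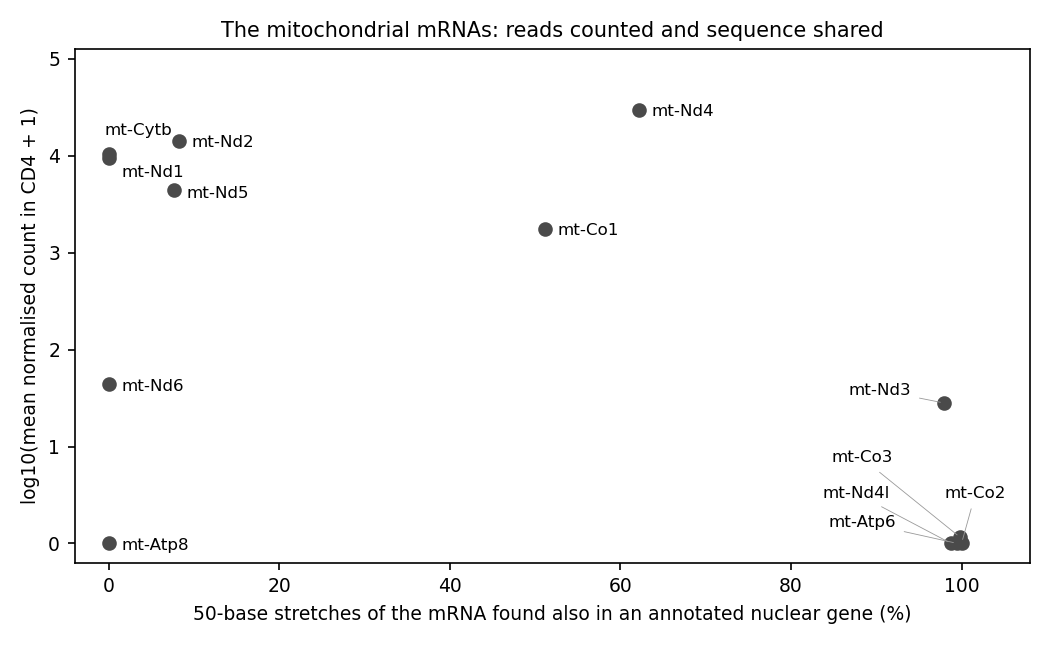
Each point is 1 of the 13 mitochondrial protein genes. The percent of its 50-base stretches found in an annotated nuclear gene is horizontal. Vertical is log10 of its mean normalised count over the 8 CD4 libraries plus 1. The 5 genes with over 97% shared sequence lie at the bottom right, and mt-Nd4 (62.2%) and mt-Co1 (51.1%) are counted in spite of shared sequence. With 0% shared, mt-Atp8 has no reads and mt-Nd6 is low (42.8).

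Among mitochondrial mRNA reads, mt-Nd4 was the largest part in every library, 37.9% to 45.2%. mt-Nd2 took 16.8% to 26.1%, mt-Cytb took 10.9% to 17.5% and mt-Nd1 11.7% to 14.7%. These are shares of reads, which depend on the capture of each 3' end and do not rank the transcripts by abundance.

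Mitochondrial mRNA made up 1.86% ± 0.498 (SD, n = 4) of all reads in TRaWT CD4 and 2.43% ± 0.870 in TRaGS CD4. In Treg the shares were 1.77% ± 0.276 in TRaWT and 1.62% ± 0.202 in TRaGS. In TRaGS CD4 replicate 2 had 3.71%, while the other 3 libraries lay at 1.84%, 1.95% and 2.23%, inside the TRaWT range of 1.26% to 2.42%. Nuclear encoded members summed to 0.518% ± 0.0684 and 0.550% ± 0.114 in CD4 and to 0.448% ± 0.0375 and 0.437% ± 0.0487 in Treg, for TRaWT and TRaGS in each case. Both genotypes overlapped in both sums within each subset.

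How the mitochondrial share separated the subsets depended on the denominator. The nuclear share was lower in Treg than in CD4 of the same mouse in all 4 TRaWT and all 4 TRaGS mice, by 0.0701 ± 0.0451 and 0.113 ± 0.0664 percentage points. The mitochondrial share of all reads was lower in Treg in 4 of 4 TRaGS mice but in 2 of 4 TRaWT mice. Without Gm42418 in the denominator it was lower in Treg in every mouse of both genotypes. In TRaWT mice 1 to 4 it was then 3.32%, 2.94%, 2.62% and 2.13% in CD4. The Treg values of these mice were 2.65%, 2.62%, 2.46% and 2.10%. The log2 ratio of mitochondrial to nuclear reads within a library was 1.81 ± 0.338 and 2.11 ± 0.197 in CD4 (TRaWT, TRaGS) and 1.97 ± 0.216 and 1.89 ± 0.0853 in Treg. Within a mouse, Treg minus CD4 in that log2 ratio was 0.16 ± 0.15 in TRaWT, higher in 3 of 4 mice, and -0.22 ± 0.24 in TRaGS, lower in 3 of 4. Without TRaGS mouse 2 the TRaGS mean was -0.12, and that of the mitochondrial share moved from -0.814 to -0.453 percentage points. These sums over members are descriptions without a test, and the within-mouse values of the genotypes overlapped.

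**Figure D2:**
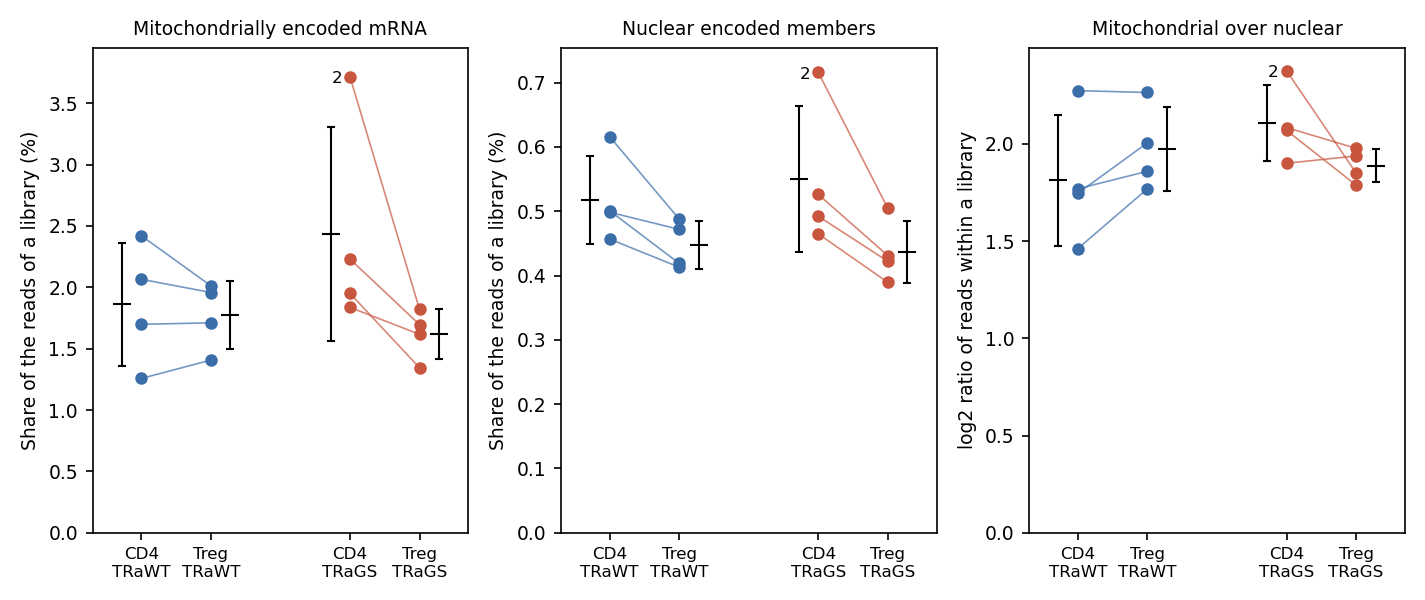
Points are libraries, lines join the CD4 and Treg library of 1 mouse, and black bars are mean ± SD of 4 libraries; the left and middle panels give the percent of reads in mitochondrial mRNA and in nuclear encoded members, the right panel the log2 ratio of the 2. CD4 TRaGS replicate 2 (marked 2) has 3.71% mitochondrial mRNA against 1.84% to 2.23% in the rest of its group.

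Within CD4, no member differed between genotypes at an adjusted p under 0.05 in limma fitted over all 10426 genes, where 0.0575% of genes were called (6 genes). edgeR and DESeq2 also called 0 members, and 8 of the 91 members (5 mitochondrial, 3 nuclear) had an unadjusted p under 0.05 in limma, against 5.17% of all genes. The mitochondrial mRNAs lay higher in TRaGS in 7 of 8 cases, with a median log2 difference of 0.48, the nuclear members had a median of 0.07 (48 positive, 35 negative) and all genes one of -0.01. Without TRaGS replicate 2 the mitochondrial median was 0.08, and without TRaWT replicate 4, the lowest TRaWT library for all 8 mRNAs, it was 0.23. limma called 1 member without TRaGS replicate 3 and 2 without TRaGS replicate 4, all mitochondrial. The genotypes did not overlap in 1 member higher in TRaGS (mt-Nd5; 1.43% of all genes) and in 1 lower (Ndufs6; 1.73%).

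mt-Nd4, a core subunit of complex I, had 29715, 26885, 21123 and 16685 normalised counts in TRaWT CD4 and 30196, 60452, 26714 and 24846 in TRaGS CD4, in replicates 1 to 4. Replicate 2 of TRaGS was the highest of the 8 libraries, and the genotypes overlapped. The log2 difference was 0.53 ± 0.13 (SE) with an adjusted p of 0.0606 in limma, which in CD4 took each gene's variance from the trend over expression levels and not from its own spread. Without TRaGS replicate 2 the difference was 0.24. mt-Nd5, another core subunit of complex I, had 4057, 3750, 3732 and 3118 in TRaWT and 5307, 6425, 4931 and 4559 in TRaGS. It was the only mitochondrial mRNA whose genotypes did not overlap in CD4, where 3.16% of all genes did not overlap, and its log2 difference was 0.53 ± 0.17 (limma adjusted p = 0.611), or 0.43 without TRaGS replicate 2.

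The other mitochondrial mRNAs overlapped between genotypes in CD4. mt-Cytb, the complex III subunit, had 11054, 9920, 6912 and 5484 in TRaWT and 12921, 23117, 7586 and 6727 in TRaGS, a log2 difference of 0.47 ± 0.15. mt-Co1, the catalytic subunit of complex IV, differed by 0.49 ± 0.21, mt-Nd1 by 0.30 ± 0.15 and mt-Nd2 by 0.23 ± 0.14. Without TRaGS replicate 2 these differences were 0.12 for mt-Cytb, 0.31 for mt-Co1, 0.015 for mt-Nd1 and 0.043 for mt-Nd2. mt-Nd6, the only one of these mRNAs on the light strand, was low (means of 41.6 ± 16.3 and 44.0 ± 37.4, SD) and differed by -0.34 ± 0.93. For mt-Nd3 the difference of 0.56 ± 1.3 included a value of 122 in TRaGS replicate 2, and without that library it was -0.44.

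**Figure D3:**
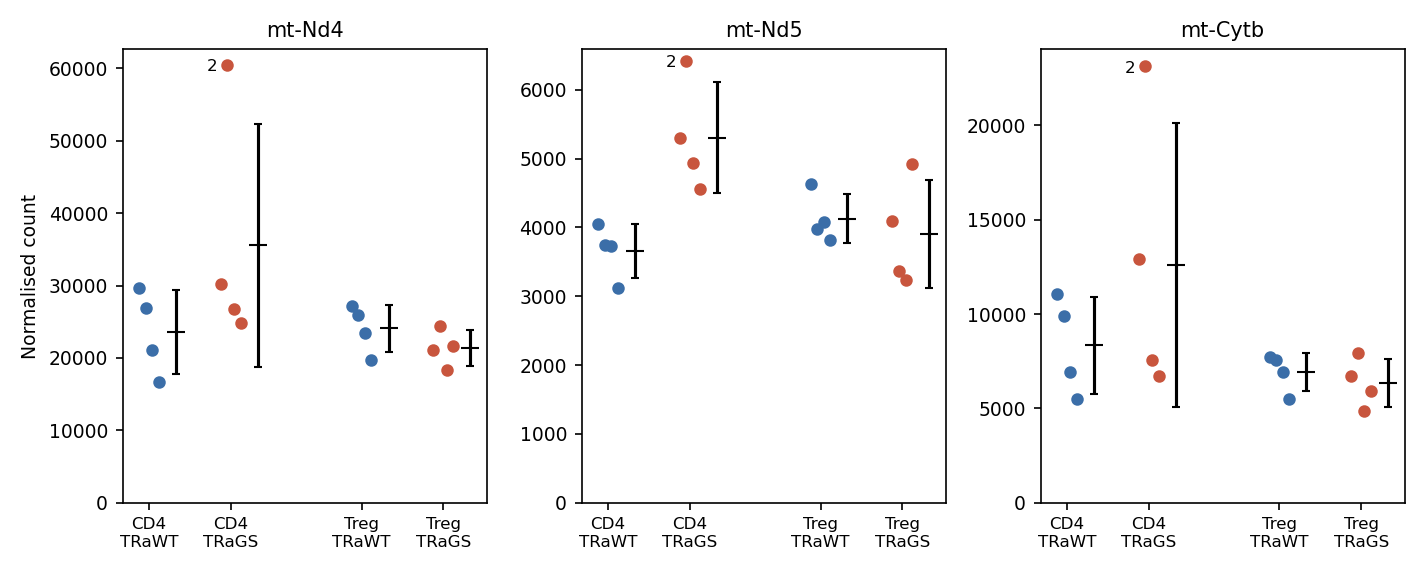
Normalised counts of mt-Nd4, mt-Nd5 and mt-Cytb in each library (points) with mean ± SD of 4 libraries (black); CD4 and Treg were normalised in separate tables, so heights are to be compared within a subset. In CD4, TRaGS replicate 2 (marked 2) is the highest in all 3 panels, and mt-Nd5 is the panel in which the other TRaGS values also lie above TRaWT.

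Nuclear members of complex I moved in both directions in CD4. Ndufb6, an accessory subunit of the membrane arm, had 71.0, 4.18, 18.5 and 14.6 in TRaWT and 143, 376, 59.5 and 43.5 in TRaGS, a log2 difference of 2.58 ± 0.84 (limma adjusted p = 0.70). Of the 50-base stretches in its last 300 bases, 82.9% lie also in Smim27, on the same or the opposite strand. Which strand was not recorded, so whether its reads can be told from those of Smim27 is not known here. Ndufs6, a zinc-binding subunit needed late in assembly, had 94.5, 136, 135 and 184 in TRaWT and 76.3, 10.6, 69.7 and 33.2 in TRaGS, without overlap, a log2 difference of -1.81 ± 0.67 (limma adjusted p = 0.888). Further values of complex I were 0.99 ± 0.45 for Ndufb7, 0.82 ± 0.50 for Ndufs4, 0.72 ± 0.50 for Ndufv2, a core flavoprotein subunit, and -1.01 ± 1.12 for Ndufb4. Without TRaGS replicate 2, Ndufs4 gave 0.12, Ndufs6 -1.24, Ndufb6 1.99, Ndufb7 0.75, Ndufv2 0.88 and Ndufb4 -0.69. None of these passed the test, and the SEs of nuclear members in CD4 (median 0.49) leave room for changes of this size.

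The nuclear classes in CD4 had medians near that of all genes: 0.11 for complex I (36 genes), -0.09 for complex II (4), 0.13 for complex III (8), 0.16 for complex IV (12), 0.04 for complex V (15) and 0.10 for complex I assembly factors (8). The largest values outside complex I were in complex IV, with Cox7c at 1.04 ± 0.92, Cox5b at -1.30 ± 1.15 and Cox6b2, a subunit known from testis, at -1.49 ± 1.40. Cox6b2 was read at 0 to 35.1 normalised counts per CD4 library, so its log2 value rests on few reads. Of the isoforms, Cox4i1 differed by 0.26 ± 0.35, Cox6a1 by 0.10 ± 0.31, Cox7a2 by 0.42 ± 0.35, Cox7a2l by -0.27 ± 0.32 and Ndufa4 by 0.41 ± 0.80. Without TRaGS replicate 2, Cox5b gave -0.60, Cox6a1 0.16, Cox7a2 0.18 and Ndufa4 0.025.

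Within Treg, again no member differed between genotypes in limma over 11051 genes, of which 0.959% were called (106 genes). edgeR and DESeq2 called 0 members too, and 4 of 91 members had an unadjusted p under 0.05, a smaller share than the 9.12% among all genes. All 7 mitochondrial mRNAs lay lower in TRaGS, with a median of -0.17, the opposite sign to CD4. The nuclear median was -0.12 (31 positive, 53 negative) and that of all genes 0.01.

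mt-Nd4 had 27126, 25992, 23508 and 19775 normalised counts in TRaWT Treg and 21138, 24467, 18278 and 21691 in TRaGS Treg. The values overlapped, with a log2 difference of -0.17 ± 0.13. mt-Nd2 differed by -0.23 ± 0.12, mt-Nd1 by -0.22 ± 0.12, mt-Cytb by -0.14 ± 0.13, mt-Co1 by -0.12 ± 0.14, mt-Nd5 by -0.10 ± 0.13 and the low mt-Nd6 by -0.60 ± 0.69. On a scale common to all 16 libraries, the SD of mt-Nd4 was 2433 in TRaGS Treg and 18318 in TRaGS CD4, where replicate 2 had 66524 against a highest Treg value of 26310.

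Among nuclear members in Treg, Ndufs7, a core iron-sulphur subunit of complex I, had 125, 148, 150 and 154 normalised counts in TRaWT and 81.4, 67.2, 113 and 76.1 in TRaGS. The genotypes did not overlap, and the log2 difference was -0.79 ± 0.29 (limma adjusted p = 0.326). Besides Ndufs7, Cox6a1 was lower without overlap (-0.31 ± 0.19) and no member was higher, against 5.07% of all genes in either direction and 2.84% higher. Cox7a2l, a factor of supercomplexes that contain complex IV, differed by -0.41 ± 0.20, Atp5k, a membrane subunit of the ATP synthase, by -0.39 ± 0.19, and Ndufs4, an accessory subunit of complex I, by -0.62 ± 0.30. The complex I assembly factors had the only positive class median, 0.38, with 6 of 8 positive, among them Ndufaf5 (0.84 ± 0.57), Ndufaf3 (0.60 ± 0.56) and Ndufaf7 (0.48 ± 0.87); none of the 8 passed the test. The lowest values were Cox6b2 (-1.38 ± 0.99), Ndufs5 (-0.92 ± 1.08), Sdhd (-0.80 ± 0.79) and Ndufs6 (-0.69 ± 0.36), and Ndufb8 reached 0.56 ± 0.30. Cox4i1 gave -0.41 ± 0.21, Cox7a2 -0.13 ± 0.26 and Ndufa4 0.31 ± 0.53.

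Treg were then compared with CD4 within each mouse, on a scale computed over all 16 libraries together, with 9914 genes tested. In TRaWT, limma called 3 members, all lower in Treg (3.33% of 90, against 1.54% of all genes called lower and 3.44% in either direction): mt-Cytb, mt-Nd1 and Atp5g3, a c-ring subunit of the ATP synthase. None was called higher (1.9% of all genes). edgeR called 3 and DESeq2 7, and the count was 0 without TRaWT mouse 1 or 2. In 24 of 90 members all 4 mice moved 1 way, 21 lower in Treg and 3 higher. Of all genes 22.4% did so in either direction, 11% lower and 11.5% higher. The mitochondrial median was -0.28 and the nuclear median -0.32, where all genes had 0.06. All 7 mitochondrial mRNAs were negative on this scale, but mt-Nd5 turned positive (0.010) when mitochondrial genes and Gm42418 were left out of the scaling, and mt-Nd2, mt-Nd4 and mt-Nd5 did (0.14, 0.055 and 0.17) with each table's own factors. Such scalings moved all genes alike: relative to the all-gene median, the mitochondrial median was -0.34 in TRaWT and -1.03 in TRaGS with the scaling used here, and with the 4 others it lay between -0.34 and -0.33 and between -1.03 and -1.02.

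In TRaGS, limma called 17 members, again all lower in Treg (18.9% of 90, against 4.1% of all genes called lower and 8.11% in either direction), with none called higher (4.01% of all genes), 17 called in edgeR and 23 in DESeq2. An unadjusted p under 0.05 was found for 29 members, 32.2%, against 21.3% of all genes. In 35 members all 4 mice moved 1 way, each lower in Treg, against 25.2% of all genes in either direction and 12.8% lower. The 17 called members were 6 of the 7 mitochondrial mRNAs tested and 11 of the 83 nuclear members. The mitochondrial median was -0.88, the nuclear median -0.37, and all genes had 0.15. Among all called genes 49.5% were higher in Treg, and 65.1% with the scaling that leaves out mitochondrial genes and Gm42418, 62.0% with upper-quartile scaling and 72.3% with each table's own factors (in TRaWT 55.1%, and 79.8% with those factors). Without TRaGS mouse 2 the count was 10, namely the same 6 mitochondrial mRNAs and 4 of the nuclear members, and the medians were -0.63 and -0.33. The B cell and Treg markers given above were also higher, and the naive T cell markers lower, in TRaGS Treg than in TRaGS CD4, and their part in these differences was not tested.

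For mt-Cytb, Treg minus CD4 in mice 1 to 4 was -0.71, -0.58, -0.20 and -0.21 in TRaWT and -1.11, -1.74, -0.87 and -0.38 in TRaGS. All 8 mice were thus lower in Treg, by -0.43 ± 0.11 (SE, limma adjusted p = 0.00931) in TRaWT and -1.02 ± 0.11 (adjusted p = 6.36e-13) in TRaGS. The limma SE of every member, abundant or not, leans on the trend over all genes. From the 4 mice alone the SE would be 0.13 in TRaWT and 0.28 in TRaGS for mt-Cytb, and over the 6 called mitochondrial mRNAs in TRaGS it lay between 0.19 and 0.28. For called nuclear members in TRaGS, given below with limma SEs, it would be larger for Uqcrfs1 (0.85), Ndufa8 (0.71), Cox7a2 (0.50), Atp5e (0.49), Atp5k (0.45) and Cox6c (0.33). It would be alike or smaller for Cox6a1 (0.25), Ndufb3 (0.25), Ndufa6 (0.24), Atp5g3 (0.22) and Atp5a1 (0.15).

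mt-Nd1 fell in Treg by 0.37 ± 0.11 in TRaWT (limma adjusted p = 0.0361) and by 0.89 ± 0.11 in TRaGS (adjusted p = 2.12e-10), lower in 4 of 4 mice of each genotype. In TRaWT this call was lost without TRaWT mouse 1, 2 or 4, and under edgeR and DESeq2, and that of mt-Cytb without TRaWT mouse 1 or 2 and under DESeq2. mt-Nd4 fell by 0.83 ± 0.09 in TRaGS (limma adjusted p = 3.56e-13), mt-Co1 by 0.88 ± 0.15 (7.79e-06), mt-Nd5 by 0.64 ± 0.12 (2.44e-05) and mt-Nd2 by 0.52 ± 0.10 (3.01e-05), each lower in 4 of 4 TRaGS mice. Without TRaGS mouse 2 mt-Nd2 fell by 0.29 (limma adjusted p = 0.0399). The TRaWT values did not pass: -0.14 ± 0.09 for mt-Nd4, -0.28 ± 0.15 for mt-Co1, -0.02 ± 0.12 for mt-Nd5 and -0.06 ± 0.10 for mt-Nd2. mt-Nd6 gave -0.73 ± 0.85 in TRaWT and -0.97 ± 0.85 in TRaGS and passed in neither. With limma's variance trend taken over the mean difference in place of the mean expression, no member passed in either genotype.

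**Figure D4:**
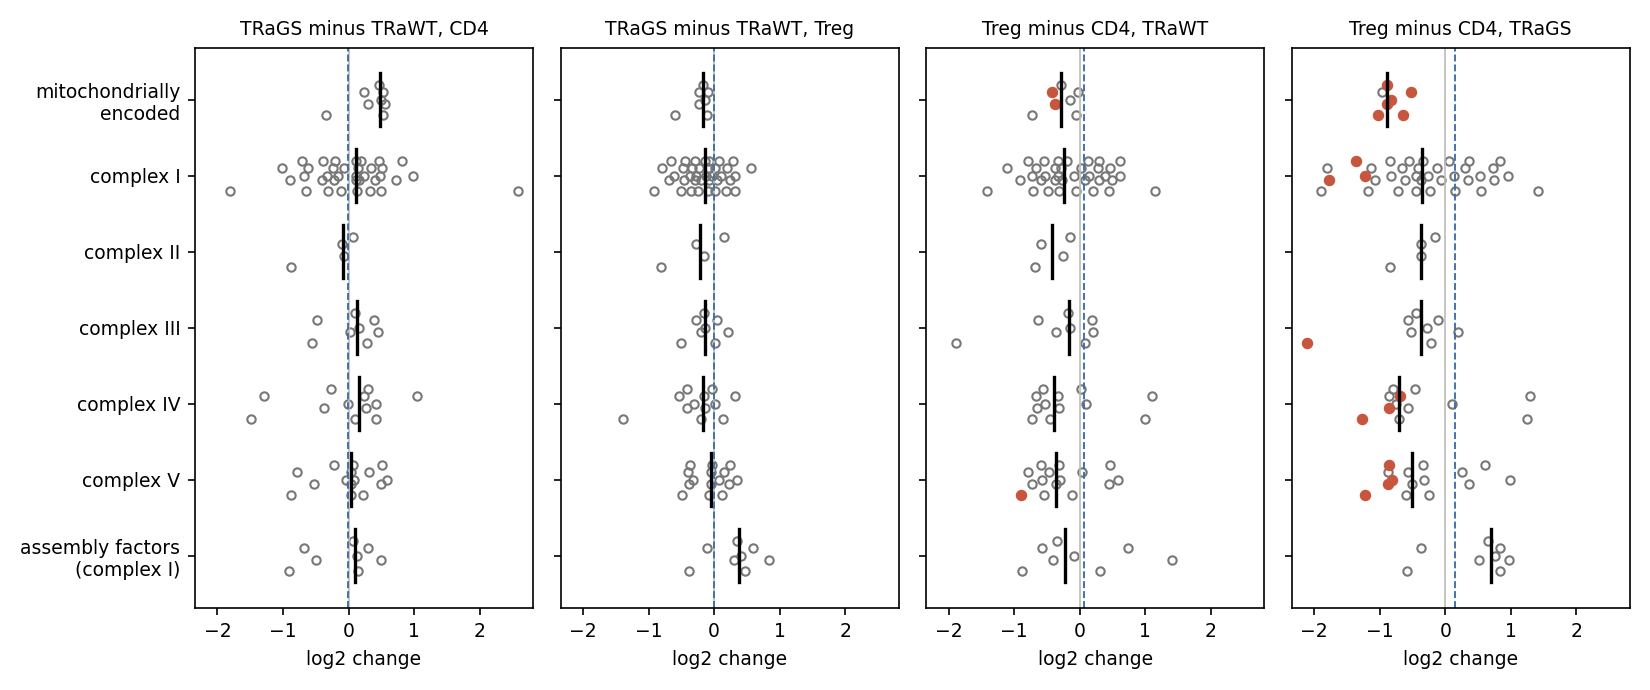
Each point is the log2 change of 1 member in 1 of 4 comparisons, by class, filled where limma's adjusted p was under 0.05; black ticks are class medians and the dashed line is the median of all genes tested. Filled points appear only in the 2 right panels, 3 in TRaWT and 17 in TRaGS, all left of 0.

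The nuclear members that fell in TRaGS Treg came from 4 of the 5 complexes. In complex I they were Ndufa6, with -1.22 ± 0.29 (limma adjusted p = 0.00147), Ndufa8, with -1.78 ± 0.52 (0.0157), and Ndufb3, with -1.37 ± 0.45 (0.0383), all accessory subunits. Ndufa6 had 624, 636, 369 and 328 counts in TRaGS CD4 and 175, 337, 143 and 190 in TRaGS Treg, on the common scale. It was lower in Treg of every mouse, also in TRaWT, and stayed called without TRaGS mouse 2 (-1.32). Ndufa8 (-1.13) and Ndufb3 did not (limma adjusted p of 0.222 and 0.0817), and Ndufb3 also failed without TRaGS mouse 1 or 3 or TRaWT mouse 4. In TRaWT they gave -0.90 ± 0.52 and -1.42 ± 0.45, short of the threshold. Ndufa1, a small membrane subunit, had -1.11 ± 0.66 in TRaWT and -1.80 ± 0.66 in TRaGS, and Ndufb6, with the shared end noted above, 1.15 ± 0.73 and -1.90 ± 0.73.

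In complex III, Uqcrfs1, the Rieske iron-sulphur protein, had the largest fall of the called members, -2.11 ± 0.62 (limma adjusted p = 0.0178). It had 107, 512, 101 and 76.4 in TRaGS CD4 and 37.0, 19.5, 40.9 and 37.8 in TRaGS Treg. The TRaWT value was -1.88 ± 0.62, lower in 3 of 4 mice, and did not pass. Without TRaGS mouse 2 the TRaGS value was -1.26 (adjusted p = 0.314).

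In complex IV, Cox7a2 changed by -1.28 ± 0.32 (limma adjusted p = 0.00319), Cox6a1 by -0.85 ± 0.25 (0.0173) and Cox6c by -0.70 ± 0.22 (0.0258). Cox6a1 and Cox7a2 are the forms found outside heart and skeletal muscle. Other forms of this complex had few or no reads: Cox6a2, Cox4i2, Cox8b, Cox8c and Cox7b2 had 0 in all 16 libraries, and Cox7a1 averaged 0.407 in CD4 and 1.06 in Treg. Cox4i1 was read in all libraries (157 to 508 in CD4) and gave 0.10 ± 0.28 in TRaWT and -0.56 ± 0.28 in TRaGS, both short of the threshold. Cox7a2l gave -0.33 ± 0.25 and -0.46 ± 0.25, and the TRaWT values of Cox6a1 and Cox7a2 were -0.45 ± 0.25 and -0.73 ± 0.32. On the positive side stood Cox6b2, with 1.11 ± 1.18 and 1.25 ± 1.18, Cox7c, with 1.00 ± 0.67 in TRaWT, and Cox5b, with 1.29 ± 0.89 in TRaGS. Of the 3 called genes only Cox6a1 passed without TRaGS mouse 2 (limma adjusted p = 0.0115), but it failed without TRaGS mouse 1 or 3, and Cox6c failed without TRaGS mouse 1 or 2.

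In complex V, Atp5k gave -1.22 ± 0.23 (limma adjusted p = 5.24e-05), Atp5e, the epsilon subunit, -0.87 ± 0.25 (0.0156), Atp5g3 -0.85 ± 0.24 (0.0126) and Atp5a1, the alpha subunit, -0.82 ± 0.18 (0.000508). Atp5a1 had 999, 1794, 1199 and 1327 in TRaGS CD4 and 697, 855, 782 and 629 in TRaGS Treg, without overlap. Atp5g3 was also called in TRaWT, at -0.89 ± 0.24 (adjusted p = 0.0144). Atp5k (-0.78) and Atp5a1 passed without TRaGS mouse 2, and Atp5e and Atp5g3 did not; Atp5e also failed without TRaGS mouse 1, and Atp5g3 in TRaWT without TRaWT mouse 1 or 2. Atp5e was lower in Treg in 3 of 4 TRaGS mice, the other 16 called members in 4 of 4. Atp5s, a coupling factor subunit with few reads, had the highest value of complex V in TRaGS, 0.99 ± 1.20.

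Complex II, the complex with no mitochondrially encoded subunit, had no called member: Sdha gave -0.59 ± 0.27 in TRaWT and -0.37 ± 0.27 in TRaGS, Sdhb -0.15 ± 0.28 and -0.36 ± 0.28, Sdhc -0.68 ± 0.57 and -0.85 ± 0.57, and Sdhd -0.25 ± 1.01 and -0.16 ± 1.01. All 8 values were negative. The complex I assembly factors stood on the other side in TRaGS, with a median of 0.70 and 6 of 8 positive (Ndufaf7 0.98 ± 1.07, Ndufaf3 0.84 ± 0.88), and in TRaWT had a median of -0.22 (Ndufaf6 1.41 ± 1.13, Ndufaf2 0.73 ± 0.93); none passed the test. Ndufb4, an accessory subunit of complex I, was the highest nuclear member in TRaGS with 1.42 ± 0.82. Ndufa4, named for complex I and now placed in complex IV, gave -0.73 ± 0.73 and -0.82 ± 0.73, and its partner Ndufa4l2 was near 0 (0.143 and 0.147 on average).

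**Figure D5:**
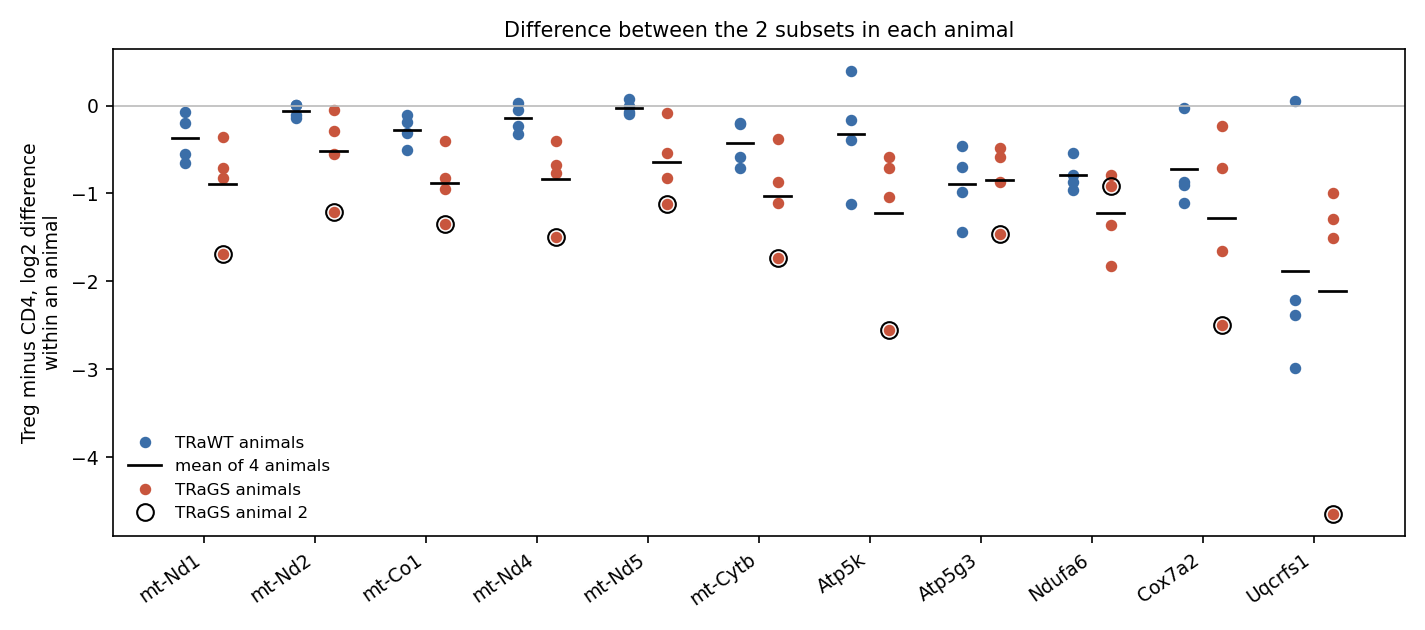
Treg minus CD4 in log2 within each of 4 TRaWT and 4 TRaGS mice (points) with the mean of each genotype (black), for 6 mitochondrial mRNAs and 5 nuclear members; TRaGS mouse 2 is ringed. mt-Nd4 is the mitochondrial mRNA whose 2 genotypes do not overlap, and TRaGS mouse 2 is the lowest TRaGS point in all genes shown except Ndufa6.

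Whether the subset difference itself depended on genotype was tested as TRaGS minus TRaWT of the within-mouse differences. Of 9914 genes, 17 passed in limma (0.171%), and 1 was a member, mt-Nd4; 0.141% of all genes were called lower and 0.0303% higher. Of 90 members, 10 had an unadjusted p under 0.05 (6.6% of all genes), and the mice of the genotypes did not overlap in 1 lower member, mt-Nd4, and 1 higher, Ndufa13 (0.68 ± 0.39, named after its value was seen), against 3.74% of all genes (1.99% lower and 1.76% higher). The Treg minus CD4 values of mt-Nd4 in mice 1 to 4 were -0.32, -0.24, -0.05 and 0.03 in TRaWT and -0.68, -1.50, -0.76 and -0.40 in TRaGS, without overlap. The difference was -0.69 ± 0.13 (adjusted p = 0.000489), and -0.47 without TRaGS mouse 2 (adjusted p = 0.0487).

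The call for mt-Nd4 was made by edgeR (adjusted p = 0.00293) and not by DESeq2 (0.105), nor in a model of all 16 libraries with the mouse as a random block (0.608), and in limma it was lost with no filter on low values (0.621), with no pairing of the libraries (0.751) and with the variance trend over the mean difference (0.842). All 7 mitochondrial mRNAs had a negative difference, with a median of -0.60: mt-Nd5 -0.62 ± 0.17 (limma adjusted p = 0.147), mt-Co1 -0.60 ± 0.22 (0.496), mt-Cytb -0.60 ± 0.16 (0.103), mt-Nd1 -0.52 ± 0.16 (0.261), mt-Nd2 -0.46 ± 0.14 (0.258) and mt-Nd6 -0.24 ± 1.20 (0.984). The nuclear median was -0.13, with 33 positive and 50 negative, and all genes had 0.01. Without TRaGS mouse 2 the mitochondrial median was -0.36, and without TRaGS mouse 4 it was -0.76 and 5 members passed.

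Promoters are shown for the called nuclear members that hold an NRF1 core, so the choice rests on the motif itself. Whether this core had a part in their lower values in Treg was not tested. RefSeq (GRCm38.p6) gave 74 promoters, from 250 bases before to 50 after the start, for 69 of the 84 nuclear members, among them 9 of the 11 called in TRaGS. Of these, 3 hold the NRF1 core CGCATGCG: Atp5k, 49 bases before the start, Cox6a1, 161 before it, and Ndufa8, 9 before it. The ETS core CCGGAAG lies on the opposite strand 16 bases before the start in Cox6a1, and 12 after it in Atp5k, outside the stretch shown; of the called members Atp5e also holds it, 102 before the start. The 250 bases before the start are Atp5k chr5:108434400-108434649, Cox6a1 chr5:115348959-115349208 and Ndufa8 chr2:36049339-36049588, all on the minus strand and given in the direction of the gene with the cores in capitals.
Atp5k: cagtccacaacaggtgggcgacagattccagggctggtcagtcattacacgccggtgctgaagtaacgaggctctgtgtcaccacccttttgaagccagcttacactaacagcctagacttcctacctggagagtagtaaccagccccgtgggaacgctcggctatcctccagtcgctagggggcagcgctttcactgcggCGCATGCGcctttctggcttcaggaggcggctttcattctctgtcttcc
Cox6a1: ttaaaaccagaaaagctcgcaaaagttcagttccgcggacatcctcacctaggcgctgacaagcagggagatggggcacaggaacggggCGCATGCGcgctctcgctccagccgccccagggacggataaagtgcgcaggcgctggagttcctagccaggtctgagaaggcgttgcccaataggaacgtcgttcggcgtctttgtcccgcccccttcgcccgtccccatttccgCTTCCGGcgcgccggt
Ndufa8: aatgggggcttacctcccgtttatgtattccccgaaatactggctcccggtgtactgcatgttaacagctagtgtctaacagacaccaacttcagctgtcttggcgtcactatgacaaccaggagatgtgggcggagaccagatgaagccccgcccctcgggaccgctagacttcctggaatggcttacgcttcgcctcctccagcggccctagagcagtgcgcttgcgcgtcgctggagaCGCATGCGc

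Searched on both strands, with no core contained in another, the NRF1 core occurred in 12.2% of member promoters and 1.87% of all 32851, the ETS core in 23.0% and 8.86%, and the YY1 core AAGATGGC in 13.5% and 2.75%. The thyroid hormone response core AGGTCA occurred in 20.3% of member promoters and 16.3% of all, and of the called members in those of Atp5e, Atp5g3 and Atp5k. Median GC content was 58.5% in member promoters and 52.7% in all. A match describes the letters in the window and not binding.

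Of 45 listed biogenesis regulators and factors of mitochondrial DNA expression, 40 or 41 were tested in each comparison and limma and edgeR called none. An unadjusted p under 0.05 in limma was found for 3 of 40 (CD4) and 1 of 41 (Treg) between genotypes, 2 of 40 (TRaWT) and 6 of 40 (TRaGS) between subsets and 2 of 40 for the difference, against 5.17%, 9.12%, 13.2%, 21.3% and 6.6% of all genes. DESeq2 called 2 between subsets in TRaGS. Tfam, which packages mitochondrial DNA, gave -0.19 ± 0.45 and -0.10 ± 0.27 between genotypes (CD4, Treg) and -0.50 ± 0.37 and -0.41 ± 0.37 between subsets (TRaWT, TRaGS). In the same order the transcription factors gave 0.63 ± 0.65, -0.36 ± 0.30, 0.90 ± 0.48 and -0.09 ± 0.48 for Nrf1, and 0.89 ± 0.73, 0.17 ± 0.32, 0.92 ± 0.53 and 0.21 ± 0.53 for Gabpa. Esrra, an orphan nuclear receptor, gave -0.73 ± 1.02, 0.42 ± 0.71, -1.34 ± 0.90 and -0.18 ± 0.90, and the coactivator Ppargc1b 0.12 ± 0.79, -0.75 ± 0.45, 0.38 ± 0.64 and -0.49 ± 0.64. The coactivator gene Ppargc1a had 0 in 3 of the 4 groups and 0.244 on average in TRaGS CD4. Of 78 mitochondrial ribosomal proteins limma and edgeR also called none in any comparison, and 5 were called by DESeq2 between subsets in TRaGS. An unadjusted p under 0.05 was found for 3 of 73 (CD4) and 1 of 74 (Treg) between genotypes, 3 of 72 (TRaWT) and 12 of 72 (TRaGS) between subsets and 2 of 72 for the difference, beside the shares of all genes just given. Their log2 changes had medians of 0.16 and -0.12 between genotypes (CD4, Treg) and -0.06 and -0.18 between subsets (TRaWT, TRaGS).

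Genes next to the complexes gave 6 calls in limma, all between subsets, 1 in TRaWT and 5 in TRaGS, where 3.44% and 8.11% of all genes were called. For the 3 lists in the order below, edgeR called 0, 0 and 1 in TRaWT and 1, 1 and 2 in TRaGS. DESeq2 called 2, 0 and 2 in TRaWT and 3, 5 and 3 in TRaGS. Between genotypes limma, edgeR and DESeq2 called none in these 3 lists (1 to 3 per list with an unadjusted p under 0.05 in limma). Sdhaf1, an assembly factor of complex II, was higher in Treg in TRaGS by 2.00 ± 0.61 (limma adjusted p = 0.0226), with 1.80 ± 0.61 in TRaWT, and was 1 of 40 assembly factors outside the rule that were tested. In the tricarboxylic acid cycle and electron carrier list (31 tested), Mdh2, malate dehydrogenase, fell by 0.78 ± 0.22 (0.0109) and Etfb, a flavoprotein carrier, rose by 1.52 ± 0.51 (0.0427) in TRaGS. In the list of carriers and antioxidant enzymes (27 tested), Gpx1, glutathione peroxidase, fell by 1.02 ± 0.26 (0.00753) in TRaWT, and in TRaGS Ucp2, an inner membrane carrier, rose by 0.84 ± 0.24 (0.0123) and Slc25a3, the phosphate carrier that feeds ATP synthase, fell by 0.71 ± 0.20 (0.0136). Gpd2, a classical thyroid hormone target that passes electrons to ubiquinone, differed between genotypes in CD4 by -1.73 ± 0.51 without passing (limma adjusted p = 0.51). In Treg its genotype difference was -0.33 ± 0.33 (0.849). Between subsets it gave -1.42 ± 0.47 in TRaWT (0.0801) and -0.02 ± 0.47 in TRaGS (0.990). Cycs, cytochrome c, gave -0.33 ± 0.96 and -0.80 ± 0.46 between genotypes and 0.55 ± 0.75 and 0.09 ± 0.75 between subsets.

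Of the other members under the minimum mean, Ndufb4c had 0 reads and Ndufa11b, Ndufs6b and Cox6c2 had means under 1. Near the threshold lay Ndufs5, with 4.89 in CD4 and 8.87 in Treg, and Atp5s, with 6.69 and 7.92. Atp5g2, a further c-ring gene, averaged 2.03 in CD4 and 1.86 in Treg, and 41.4% of the stretches in its last 300 bases lie in other genes. Atp5l (0.101 and 1.32) shares 70.1%. Over the 83 tested nuclear members of the CD4 table, 61 share none of the stretches in that end, and among the called ones Cox6c shares 38.2%, with the pseudogene Cox6c2, and Ndufb3 19.1%.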

How the data were processed

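The deposited values are normalised counts (a signal unit) in 1 table per subset, in which, as the values show, the authors divided each library's reads by 1 factor. The build GRCm38 is named in the submitters' processing notes; the aligner and the counting program are not stated there. All values were whole multiples of 1 step per library (100% within 0.001), which gave back the reads and the depth. Genes with a mean of at least 5 entered limma 3.58.1 (R 4.3.3) as log2 of the value plus a pseudocount of 1, with the variance trend on mean expression and Benjamini-Hochberg adjustment over all genes; such fold changes understate low genes. Subsets were compared as differences within a mouse, since the titles give both libraries of a mouse 1 number, on reads with median-of-ratios factors over all 16 libraries. Prior degrees of freedom were infinite in CD4, 36.8 in Treg and 102 for subsets, so SEs lean on the trend. The count tools edgeR 4.0.16 and DESeq2 1.42.0 served as alternatives. Copies were searched with BLAST 2.17.0 in GENCODE M21 transcripts. Fits were also run on simulated libraries drawn independently, with no effect of the mouse, so that run does not bear on the pairing within a mouse. Members, lists and the rule for named genes were chosen with earlier results of these data known; that rule took all mitochondrial mRNAs, called members, the 5 largest nuclear changes per direction, isoform partners and called genes of the other lists. Further called members and Ndufs4, Cox7a2l, Atp5k and complex II in some comparisons were named after their values were seen. Replicates are different mice per the labels, and none agreed within sampling noise (lowest chi-square per degree of freedom 7.67).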

Additional observations from a re-analysis of the deposited data

Results flagged for a closer look

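The 4 libraries of a group were checked for 1 value far from the others (Dixon's criterion), in 172 sets of 4; chance alone gives about 1 in 20 such sets, and 11 were found. Of these, 6 are the high value of CD4 TRaGS replicate 2: mt-Nd4 at 60452 normalised counts (the others 24846 to 30196), mt-Nd3 at 122, Uqcrfs1 at 465, Atp5k at 1444, Ndufaf2 at 253 and Ndufaf3 at 136. Further high values were Atp5s at 14.9 in CD4 TRaGS replicate 4, Ndufaf7 at 28.4 in CD4 TRaGS replicate 1 and mt-Nd3 at 52.6 in CD4 TRaWT replicate 2. In Treg, mt-Co1 was low in TRaGS replicate 3, at 1026 against 1304 to 1360, and mitochondrial ribosomal RNA took 10.6% of reads in TRaWT replicate 1 against 8.38% to 8.70%. The genotype effect on mt-Nd4 differed between subsets by -0.69 in limma's test of the difference.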

How the results depend on the processing

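Of 100 values of named members by comparison, 86 kept their sign under all alternatives run (20 for genotypes, 23 for subsets) and 14 changed it under some; the causes were not tested. The variance trend on the mean difference and the subset fit with no replicate block were chosen after seeing the data. Members called between genotypes in CD4 numbered 1 with a pseudocount of 0.5 and 0 to 2 without 1 library, and the mitochondrial median ranged from 0.080 to 0.60 without 1 library. The 3 members called between subsets in TRaWT became 0 with no filter, each table's own factors, the random block, no replicate block or the trend on the mean difference, 5 with a pseudocount of 5 or thinned reads, 6 with TMM, 7 with DESeq2 or array weights, and 0 to 8 without 1 mouse (5 without TRaGS mouse 1, 8 without TRaGS mouse 2). With own factors the TRaWT medians were -0.081 (mitochondrial) and -0.12 (nuclear). The 17 in TRaGS became 11 with no filter, 0 with the trend on the mean difference, 15 with no replicate block and 10 to 18 without 1 mouse. The 1 member in the difference became 0 with no filter, DESeq2, the random block, no replicate block or the trend on the mean difference, and 1 to 5 without 1 mouse (5 without TRaGS mouse 4).

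Over all genes, the 6 calls in CD4 became 1 with no filter, 3 in edgeR, 10 in DESeq2, and 1 or 3 without TRaWT replicate 1, 2, 3 or 4 or TRaGS replicate 1. The 106 in Treg became 62 with no filter and 54 and 56 without TRaGS replicate 3 and 4. The 341 in TRaWT became 185 with no filter, 582 in DESeq2, 566 with array weights, 0 with the trend on the mean difference, 200, 182 and 223 without TRaWT mouse 1, 2 and 4, and 576 without TRaGS mouse 2. The 804 in TRaGS became 1303 in DESeq2 and 52 with the trend on the mean difference. The 17 in the difference became 1 with no filter, 41 in DESeq2, 3 with the random block or no replicate block, 0 with the trend on the mean difference, 10 and 11 without TRaWT mouse 1 and 2, and 27 without TRaGS mouse 4.

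Genotypes share replicate numbers but not mice, and same-numbered libraries did not deviate together (correlations of -0.021 to 0.046). With the replicate block, members called stayed at 0 in both subsets, the calls over all genes were 4 in CD4 and 112 in Treg, and the mitochondrial medians were 0.48 and -0.17.

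Signs turned as follows. In CD4, Cox6a1 gave -0.012 with upper-quartile scaling, -0.0062 with scaling without mitochondrial genes and Gm42418, and -0.087 to 0.22 without 1 library. mt-Nd6 gave 0.068 in edgeR, 0.076 in DESeq2 and -0.84 to 0.20 without 1 library. Ndufa4 gave -0.030 with array weights and -0.014 to 0.85 without 1 library, Cox4i1 -0.033 to 0.41 and mt-Nd3 -0.44 to 1.35. In Treg, Ndufaf7 gave -0.26 in edgeR, -0.28 in DESeq2 and -0.36 to 1.29 without 1 library, and Cox7a2 0.071 with array weights and -0.28 to 0.088 without 1 library. In TRaWT, mt-Nd5 gave 0.010 with scaling without mitochondrial genes and -0.058 to 0.00040 without 1 mouse, mt-Nd2, mt-Nd4 and mt-Nd5 gave 0.14, 0.055 and 0.17 with own factors, and Cox4i1 -0.16 to 0.23 without 1 mouse. In the difference, Ndufa4 gave 0.013 (upper quartile), 0.031 (without mitochondrial genes), 0.078 (array weights), 0.027 (thinned) and -0.52 to 0.35 without 1 mouse, mt-Nd6 0.16 (array weights) and -0.77 to 0.24, and Cox7a2l -0.28 to 0.052.

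Without Gm42418 in the denominator the mitochondrial shares were 2.75% and 3.43% in CD4 and 2.46% and 2.19% in Treg (TRaWT, TRaGS), and the nuclear shares 0.776%, 0.782%, 0.625% and 0.592%. Without assembly factors and genes with pseudogene rows, the log2 ratio in TRaGS Treg was 2.05 and the nuclear share in TRaWT Treg 0.399%.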
